A study of Mus musculus with 2 samples.

Results

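Splicing factor genes were examined in a map of TET2 binding in adipocytes. The group comprised the 67 protein-coding genes of GENCODE M21 whose symbols start with Srsf, Hnrnp, Snrp, Sf3a, Sf3b, Prpf or U2af, of 21951 protein-coding genes in all, and Snrpn was left out by the rule. The cells were stem cells from the stromal vascular fraction of mouse inguinal white fat, grown to passage 3 and differentiated in culture with IBMX, dexamethasone and insulin. The labels give no genotype, age or treatment group, so none was compared. Chromatin of 1 TET2 library, made with an antibody against TET2, was sequenced beside 1 input library made without immunoprecipitation, and the deposited list holds the peaks that the authors called in the first against the second. There is no replicate, so every interval below covers counting error only and no p-value was computed across genes.

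Pre-mRNA splicing removes introns in the spliceosome, a machine of small nuclear ribonucleoproteins (snRNPs) and many associated proteins. SR proteins and hnRNP proteins bind the transcript and favour or disfavour splice sites, U2AF recognises the 3′ splice site, and the Sm proteins form the ring on which the U1, U2, U4 and U5 snRNPs are built. SF3A and SF3B are the parts of the U2 snRNP that hold the branch point, and PRP factors include the core of the U4/U6.U5 complex. These genes are active in nearly all cells, and most of them start in CpG-rich DNA. TET2 is an enzyme that oxidises methylated cytosine, mostly at CpG sites, and has no DNA-binding domain of its own.

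A peak was counted at a promoter when its midpoint lay within 1 kb of any annotated transcription start site (TSS) of the gene. Of the 67 genes, 26 (38.8%, exact 95% binomial interval 27.1% to 51.5%) had a promoter peak, against 24.6% of all protein-coding genes. CpG content was measured as the CpG ratio, the CpG sites found divided by those expected from the C and G bases, over 500 bp each side of the 5′ end of the gene. The median CpG ratio was 0.84 for the splicing factor genes and 0.55 for all protein-coding genes. Among other coding genes of the same CpG ratio, weighted to the 67 genes, 37.8% had a promoter peak. The share of the splicing factor genes thus lay 0.97 percentage points above that of coding promoters of similar CpG ratio, which is inside its interval.

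**Figure D1:**
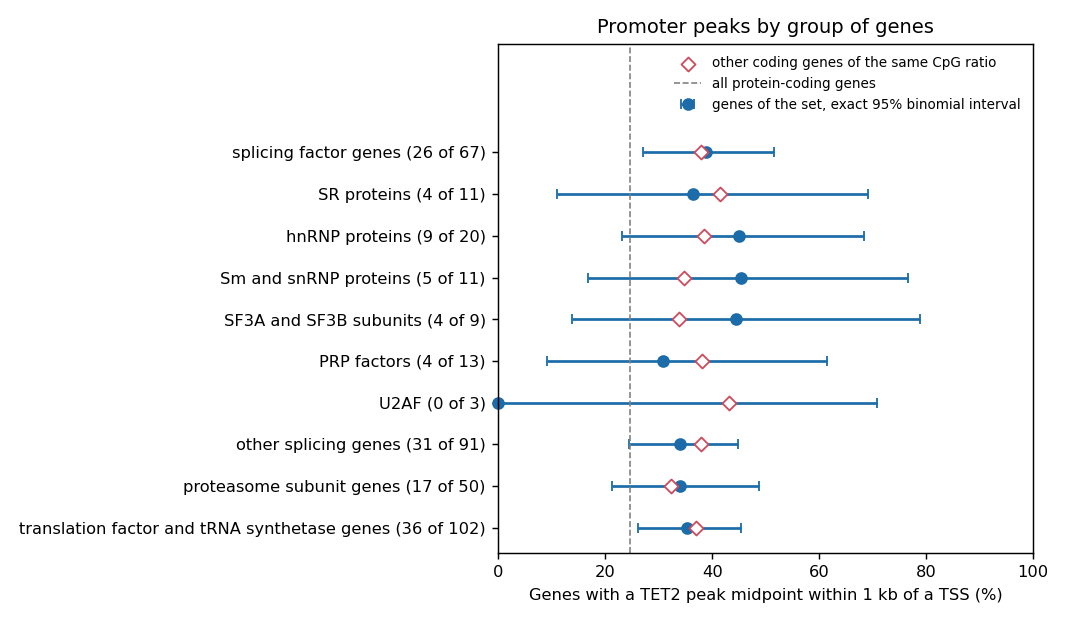
Share of genes with a TET2 peak midpoint within 1 kb of a TSS (x axis, %) in each group of genes (y axis), with the exact 95% binomial interval as a bar, the share of other coding genes of the same CpG ratio as a diamond and the share of all protein-coding genes as a dashed line. For the splicing factor genes the circle at 38.8% and the diamond at 37.8% nearly coincide, both right of the dashed line at 24.6%.

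The sequences below show what TET2 peaks covered at these genes. They are the 5 genes with the largest −log10 p at a promoter peak, the 1 gene with a peak in a coding exon away from any TSS, and, for contrast, both genes with the highest CpG ratio among those without a promoter peak. Each is a stretch of at most 160 bases nearest the peak midpoint, or nearest the usual peak position for genes without one, that holds no base of an annotated UTR. They were read from the RefSeq GRCm38.p6 genome and are written 5′ to 3′ on the strand of the gene, with CpG sites in capitals.

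Snrpb lies on the minus strand at chr2:130178943-130179102, Hnrnpm on the minus strand at chr17:33649873-33650032, Hnrnpf on the plus strand at chr6:117907248-117907407, Prpf40b on the plus strand at chr15:99314934-99315093, and Snrpe on the minus strand at chr1:133609790-133609925. They hold 20, 9, 21, 2 and 15 CpG sites.
Snrpb: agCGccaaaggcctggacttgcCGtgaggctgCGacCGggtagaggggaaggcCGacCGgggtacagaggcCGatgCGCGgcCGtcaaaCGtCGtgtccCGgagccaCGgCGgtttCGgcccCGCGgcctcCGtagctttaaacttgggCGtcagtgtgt
Hnrnpm: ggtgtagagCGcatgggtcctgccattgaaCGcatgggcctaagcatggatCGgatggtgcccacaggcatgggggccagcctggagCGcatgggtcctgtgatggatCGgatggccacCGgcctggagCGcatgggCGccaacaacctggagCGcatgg
Hnrnpf: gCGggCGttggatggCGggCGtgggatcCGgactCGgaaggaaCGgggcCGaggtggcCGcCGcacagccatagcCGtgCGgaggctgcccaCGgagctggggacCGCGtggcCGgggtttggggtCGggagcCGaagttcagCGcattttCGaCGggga
Prpf40b: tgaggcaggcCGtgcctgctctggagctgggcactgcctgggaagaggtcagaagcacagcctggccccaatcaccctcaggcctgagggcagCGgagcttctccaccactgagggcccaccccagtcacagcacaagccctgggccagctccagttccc
Snrpe: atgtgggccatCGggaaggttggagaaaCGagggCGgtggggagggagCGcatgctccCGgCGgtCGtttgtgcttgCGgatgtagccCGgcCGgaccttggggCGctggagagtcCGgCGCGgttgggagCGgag

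The stretch from the Srsf4 peak lies on the plus strand at chr4:131900591-131900750 in the last coding exon and holds 15 CpG sites. Those of Srsf6 (plus strand, chr2:162931671-162931830) and U2af2 (plus strand, chr7:5062288-5062447) begin at a start codon and hold 19 and 14 CpG sites, and neither gene has a promoter peak.
Srsf4: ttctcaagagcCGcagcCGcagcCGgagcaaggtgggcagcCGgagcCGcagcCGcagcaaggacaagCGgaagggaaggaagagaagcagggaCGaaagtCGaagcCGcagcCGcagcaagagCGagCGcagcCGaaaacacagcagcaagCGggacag
Srsf6: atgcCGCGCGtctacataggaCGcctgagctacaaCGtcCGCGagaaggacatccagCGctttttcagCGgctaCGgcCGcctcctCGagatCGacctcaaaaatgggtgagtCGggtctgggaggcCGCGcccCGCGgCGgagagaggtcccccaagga
U2af2: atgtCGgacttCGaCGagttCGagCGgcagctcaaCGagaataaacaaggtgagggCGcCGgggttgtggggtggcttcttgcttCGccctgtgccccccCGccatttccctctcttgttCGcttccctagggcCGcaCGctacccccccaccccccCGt

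The stretches at Snrpb and Hnrnpf thus had about as many CpG sites as that of Srsf6, where no peak was called. Prpf40b had few CpG sites under one of the highest peaks of the group.

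Among the 11 genes of SR proteins, which bind exonic enhancers, 4 had a promoter peak (36.4%, 10.9% to 69.2%), and 41.4% would be the share at the same CpG ratio. Srsf2, an SR protein that also regulates transcription elongation, had 2 of them. One had a −log10 p of 7.57 with its midpoint 247 bp downstream of the nearest TSS in a coding exon, and the other 4.29 at 456 bp upstream, and both lay within 1 kb of a TSS of Mfsd11. Srsf9 had a peak of 7.63 at 258 bp upstream, Srsf12 one of 6.49 at 590 bp downstream and Srsf11 one of 5.13 at 84 bp upstream, the last shared with Lrrc40. Srsf1, Srsf3, Srsf4, Srsf5, Srsf6, Srsf7 and Srsf10 had no promoter peak. Srsf1, the founding member of the family, had its nearest peak 120447 bp from a TSS, and Srsf6, with the highest CpG ratio of all 67 genes (1.14), had it 271915 bp away.

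hnRNP genes, whose products coat nascent transcripts, made up 20 members, of which 9 (45.0%, 23.1% to 68.5%) had a promoter peak against 38.5% at the same CpG ratio. Hnrnpm and Hnrnpf carried the highest values, described below with their positions in the gene. Hnrnpll, a regulator of exon choice known from T cells, had a peak of 8.46 at 192 bp downstream of a TSS. Hnrnpul2 followed with 8.06 at 99 bp and Hnrnpa3 with 7.94 at 541 bp, all downstream. The peak at Hnrnpl had a −log10 p of 7.21 and its midpoint 14 bp upstream of a TSS. That midpoint lay in a coding exon, 2382 bp downstream of the 5′ end of the gene. GENCODE marks the transcript starting at that TSS as having no known 5′ end. Hnrnpul1 and Hnrnpu, a scaffold protein of the nucleus, had weak peaks of 5.00 and 4.73. Hnrnpa2b1 had 2 peaks of 5.74 and 5.58. Of its close relatives, Hnrnpa3 had the peak given above at a CpG ratio of 1.00, while Hnrnpa0 and Hnrnpa1 had none at 1.10 and 0.99. Hnrnpab, Hnrnpc, Hnrnpd, Hnrnpdl, Hnrnph1, Hnrnph2, Hnrnph3, Hnrnpk and Hnrnpr had none either. The 3 Hnrnph genes, which encode proteins that bind G-rich RNA, were thus all without a promoter peak, while Hnrnpf of the same subfamily had 2. These are few genes beside a share of 38.5% at the same CpG ratio, and no difference within the subfamily was tested.

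The 11 Snrp genes encode the Sm ring and proteins particular to the U1 and U2 snRNPs, and 5 of them (45.5%, 16.7% to 76.6%) had a promoter peak against 34.7% at the same CpG ratio. Snrpb, which encodes the Sm proteins B and B′, had the highest value of all splicing factor genes, 13.5, with the midpoint 280 bp downstream of a TSS in an intron, and 209 peaks (1.48%) of the list had a larger value. Among the other genes of the Sm ring, Snrpe had a peak of 9.59 at 18 bp upstream of a TSS and Snrpd1 one of 4.12 at 332 bp downstream, while Snrpd2, Snrpd3, Snrpf and Snrpg had none. Thus 3 of the 7 genes of the ring had a peak, beside 24.6% of all protein-coding genes and the 34.7% matched to the 11 Snrp genes. No interval and no matched share was computed for these 7. The peak at Snrpd1 had a value under a −log10 p of 5, the stated setting for peak calling. Of the U1 proteins, Snrpc had a peak of 9.39 at 93 bp downstream and Snrpa peaks of 6.21 and 5.13. The U2 proteins Snrpa1 and Snrpb2 had none, with the nearest peaks at 358602 bp and 333389 bp, the most remote of all members.

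Of the 9 genes of SF3A and SF3B, 4 (44.4%, 13.7% to 78.8%) had a promoter peak against 33.8% at the same CpG ratio. Sf3b2 had a peak of 8.85 at 90 bp downstream of a TSS, Sf3a2 one of 8.52 at 124 bp upstream and Sf3a1 one of 6.63 at 29 bp downstream. Sf3b1, which contacts the branch point, had a peak of 5.79 at 388 bp downstream. Sf3a3, Sf3b3, Sf3b4, Sf3b5 and Sf3b6 had none, and Sf3b5 had the lowest CpG ratio of the genes without a peak (0.14) and a single TSS. Next to it in CpG ratio were Snrpa1 (0.15) and the PRP factor gene Prpf6 (0.26). Peaks were thus called at some of these genes and not at others, beside a share of 33.8% at the same CpG ratio. No difference between subunits was tested.

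Of the 13 Prpf genes, 4 (30.8%, 9.09% to 61.4%) had a promoter peak against 38.1% at the same CpG ratio. Prpf40b, a protein associated with the U1 snRNP, had a peak of 10.5 and Prpf38b one of 9.27 at 64 bp downstream of a TSS. Prpf3, a protein of the U4/U6 snRNP, had a peak of 6.47 at 2 bp and Prpf8, the central protein of the spliceosome, one of 6.21 at 123 bp downstream. Prpf4, Prpf4b, Prpf6, Prpf18, Prpf19, Prpf31, Prpf38a and Prpf39 had none. Prpf3 and Prpf4, whose products bind each other, differed in this respect. This is 1 pair of genes beside a share of 38.1% at the same CpG ratio, and the difference was not tested. The 3 genes of U2AF, U2af1, U2af1l4 and U2af2 (CpG ratio 1.11), had no promoter peak, which allows a share of up to 70.8% (exact 95% binomial interval), against 43.1% at the same CpG ratio. With 3 to 20 genes each, no group of genes had an interval that left out the share of coding genes of the same CpG ratio.

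**Figure D2:**
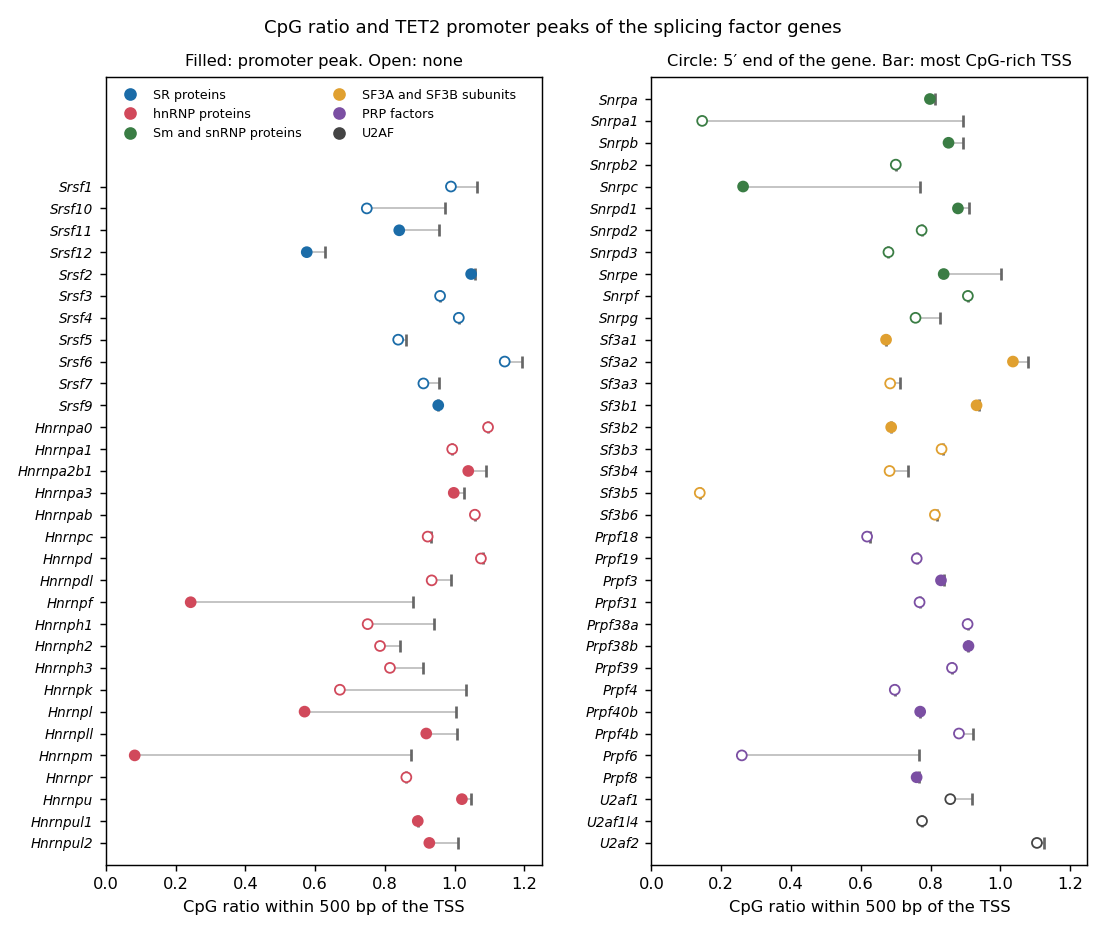
CpG ratio within 500 bp of the TSS (x axis) of the splicing factor genes (y axis, 1 of the 67 not shown), at the 5′ end of the gene (circle) and at its most CpG-rich TSS (bar), coloured by group. Filled circles are the 26 genes with a TET2 promoter peak and open circles genes without, and the ranges of both kinds overlap over most of their length.

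The CpG ratio separated the members with and without a promoter peak little. Its median was 0.85 for the 26 genes with a peak (0.08 to 1.05) and 0.81 for the 41 without (0.14 to 1.14), whereas among other coding genes the medians were 0.74 and 0.41. At ratios of 0.8 to 1.0, 12 of 28 members (42.9%, 24.5% to 62.8%) had a promoter peak against 44.2% of 4031 other coding genes. At ratios of 1.0 and over it was 4 of 10 (40%, 12.2% to 73.8%) against 41.3% of 392. At 0.6 to 0.8 it was 5 of 21 (23.8%, 8.22% to 47.2%) against 34.7% of 5606. At 0.4 to 0.6 both members, Srsf12 and Hnrnpl, had one (2 of 2, 15.8% to 100%) against 26.4% of 3078. The Hnrnpl peak lay 2382 bp downstream of the 5′ end. The most CpG-rich TSS of Hnrnpl has a ratio of 1.00 and that of Srsf12 a ratio of 0.63. Below 0.4, 3 of 6 members (50%, 11.8% to 88.2%) had a peak against 7.59% of 8777 genes. These 3 were Hnrnpf, Hnrnpm and Snrpc, whose annotated 5′ end is CpG-poor while a later TSS has a ratio of 0.88, 0.88 and 0.77. The same held for Snrpa1 and Prpf6, which had no peak and whose most CpG-rich TSS has a ratio of 0.89 and 0.77. Taken at the most CpG-rich TSS of each gene, all but 1 of the 67 genes had a ratio of at least 0.6, and the exception was Sf3b5 without a peak. On that measure 9 of 17 genes at 1.0 and over (52.9%, 27.8% to 77.0%) had a peak, against 41.9% of other coding genes. At 0.8 to 1.0 the order was the other way, with 11 of 31 (35.5%, 19.2% to 54.6%) against 44.6%, and at 0.6 to 0.8 it was 6 of 18 (33.3%, 13.3% to 59.0%) against 34.2%. The share expected over all 67 genes rose to 41.5%, above the 38.8% observed.

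**Figure D3:**
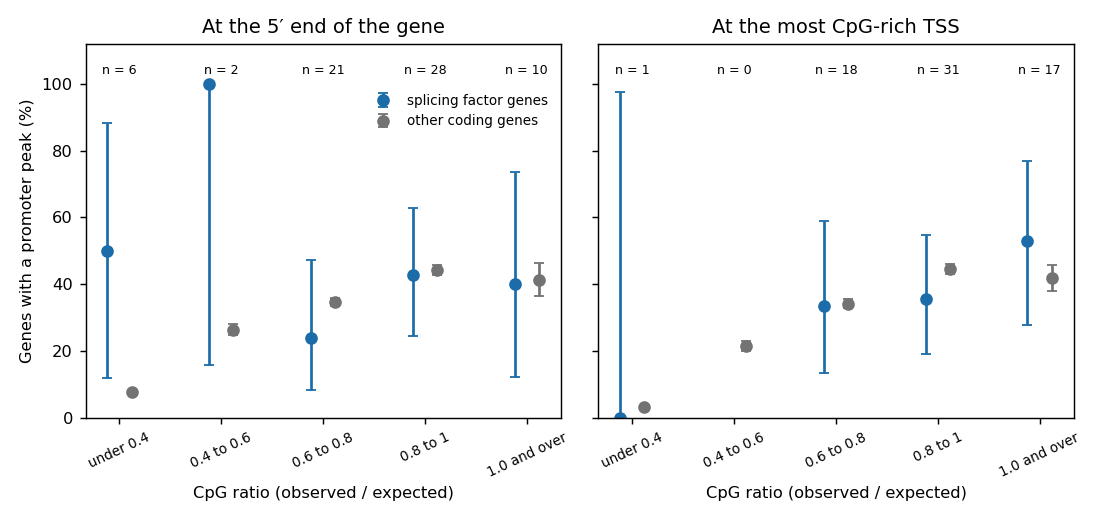
Share of genes with a TET2 promoter peak (y axis, %) by CpG ratio (x axis) taken at the 5′ end of the gene (left) or at its most CpG-rich TSS (right), for splicing factor genes and other coding genes, with exact 95% binomial intervals and the number of splicing factor genes above. Below a ratio of 0.4 at the 5′ end, 50% of 6 splicing factor genes had a peak against 7.59% of other genes, and on the right the only such gene had none.

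Genes with more TSSs have more places where a peak can count. The splicing factor genes had a median of 6 TSSs and all protein-coding genes a median of 3. None of the 4 members with 1 TSS had a promoter peak (0% to 60.2%), against 14.6% of other coding genes with 1 TSS. With 2 to 3 TSSs it was 4 of 11 (36.4%, 10.9% to 69.2%) against 18.9%, and with 4 to 7 it was 11 of 27 (40.7%, 22.4% to 61.2%) against 30.6%. With 8 or more TSSs it was 11 of 25 (44%, 24.4% to 65.1%) against 38.4%. With the CpG ratio and the number of TSSs both matched, the share expected was 39.1%.

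The 31 promoter peaks of the 26 genes were all distinct, with 21 genes having 1 peak and 5 having 2. Their midpoints had a median offset of 99 bp downstream of the nearest TSS (−456 to 590 bp), and 5139 peaks at other coding promoters had a median of 100 bp. At or downstream of the TSS lay 22 of the 31 (71.0%, 52.0% to 85.8%) against 71.2%. Within 500 bp lay 29 (93.5%, 78.6% to 99.2%) against 87.3%, and the exceptions were Hnrnpa3 and Srsf12. No member had its nearest midpoint between 590 bp and 5685 bp from a TSS of its own, the latter being that of Snrpg, an Sm protein gene counted as having none. Of the 41 genes without a promoter peak, 0 had a midpoint 1 to 3 kb from a TSS of their own (0% to 8.60%), against 5.23% of other coding genes without one, and for 19 it was over 50 kb away. With a limit of 3 kb the count stayed at 26, and with 500 bp it was 24, without Hnrnpa3 and Srsf12.

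The median −log10 p of the 31 peaks was 7.57 (interval of the median 6.21 to 8.65), against 6.83 (6.80 to 6.94) at other coding promoters and 6.21 over the whole list. With 1 TSS a gene the median of the members was 6.56 (22 peaks), under that 6.83, which was taken with all TSSs. With 1 value a gene it was 7.60 (26 genes). The p setting stated for peak calling corresponds to a −log10 p of 5, and 2182 peaks of the list lie under it. At least 5 was reached by 28 of the 31 (90.3%) against 89.0%. The exceptions were Srsf2 at its upstream peak, Hnrnpu and Snrpd1. The value grows with the number of fragments under a peak and is used here only to order peaks within the one library.

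**Figure D4:**
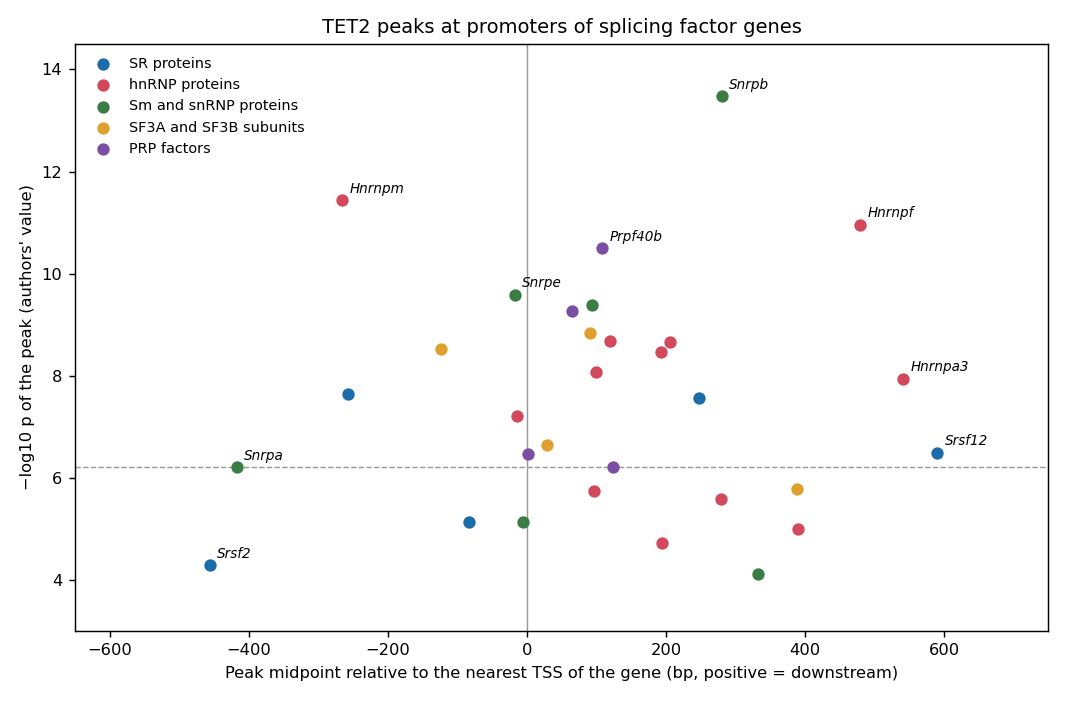
The −log10 p of each of the 31 TET2 promoter peaks of splicing factor genes (y axis) against the distance of the peak midpoint from the nearest TSS of the gene (x axis, bp, positive downstream), coloured by group, with the median of the whole list (6.21) as a dashed line. Most points lie within 500 bp of the TSS, with Snrpb highest at 13.5 and Hnrnpa3 and Srsf12 farthest to the right.

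The peaks themselves were rich in GC, with a median of 66.4% (33.9% to 72.9%) against 66.1% at other coding promoters. Their CpG ratio had a median of 0.87 (interval of the median 0.80 to 0.99), and the median of the others was 0.79 (0.78 to 0.79). This comparison was not matched on the CpG ratio of the promoter. At the most CpG-rich TSS that ratio had a median of 0.91 for members with a peak and 0.79 for other coding genes with a peak. A ratio under 0.6 was found in 5 of 31 (16.1%, 5.45% to 33.7%) against 20.3%. The 5 were the Srsf12 peak, at 0.39, and peaks far inside Hnrnpa2b1, Hnrnpm, Snrpa and Prpf40b. By the midpoint, 11 of the 31 peaks lay in an intron, 9 in a coding exon, 7 in a UTR exon and 4 outside the coding transcripts of the gene.

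Motifs were searched on both strands of each peak. GGGCGG, bound by SP1, occurred in 24 of the 31 peaks (77.4%, 58.9% to 90.4%) and in 72.2% of peaks at other coding promoters, while windows of 456 bp centred on the 5′ end held it in 51.3% of all coding genes. CCGGAAG, bound by ETS factors, occurred in 8 (25.8%, 11.9% to 44.6%) against 14.8%, and in 13.9% of all coding promoter windows. In the windows of all 67 genes, with or without a peak, the ETS motif occurred in 24 (35.8%, 24.5% to 48.5%) and the SP1 motif in 47 (70.1%, 57.7% to 80.7%). Both intervals lie above the share of all coding genes, which were not matched on CpG ratio, while those of the other 3 motifs include it. AAGATGGCG, bound by YY1, occurred in 3 peaks (9.68%, 2.04% to 25.8%), at Hnrnpl, Sf3a1 and Sf3b2, against 2.90%, and in 2.67% of all coding windows. GCATGCGC, bound by NRF1, occurred in 1 (3.23%), at Snrpe, against 3.72%, and in 4.16% of all coding windows. TTNNGCAA, bound by C/EBP factors, occurred in 1 (3.23%, 0.08% to 16.7%), at Sf3b2, against 8.54%, and in 13.3% of all coding windows. For the 31 whole peaks each of these 5 intervals included the share at other coding promoters. Within 100 bp of the midpoint the YY1 motif was still in 3 (9.68%, 2.04% to 25.8%), against 1.17% at other coding promoters, which lies outside the interval. This rests on 3 peaks and was not matched on CpG ratio. For the rest of the 5 motifs the interval in this window included the share at other coding promoters. In the windows of all 67 genes the YY1 motif occurred in 3 (4.48%, 0.93% to 12.5%), against 2.67% of all coding genes. The ETS and YY1 motifs can overlap in the letters AAG, each motif was counted on its own, and a match is a string of letters, not a bound site.

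Of the 31 promoter peaks, 7 also lay within 1 kb of a TSS of another coding gene and cannot be told apart as belonging to one or the other. They were at Srsf11 with Lrrc40, Srsf2 with Mfsd11, Hnrnpa2b1 with Cbx3, Snrpa with BC024978, Sf3a1 with Ccdc157 and Sf3a2 with Plekhj1. Of the 24 members with another coding TSS within 1 kb of their own, 8 (33.3%, 15.6% to 55.3%) had a promoter peak, and of the 43 without, 18 (41.9%, 27.0% to 57.9%). Among other coding genes the shares were 34.3% and 22.8%, so members without such a neighbour lay above other coding genes without one, a comparison not matched on CpG ratio.

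Some peaks lay far inside the gene. Hnrnpm, which encodes a protein with a long stretch of methionine- and arginine-rich repeats, had a peak of 11.4 on chromosome 17 from 33649509 to 33650397, at 90.8% of the length of the gene, with the midpoint in a coding exon 266 bp upstream of the nearest TSS. This nearest TSS is the start of a transcript that GENCODE marks as having no known 5′ end, and a further TSS also lay within 1 kb. The other peak of Hnrnpm, of 8.65, lay at 4.17% of the gene length, 205 bp downstream of a start that is also marked in this way. Of all 9-base words in the inner peak, 23.8% occurred more than once within it, the most of the 31 peaks, against a median of 1.09% over these and 1.24% at other coding promoters. The repeats can be seen in the printed sequence as recurring gagCGcatggg.

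Srsf4 had no promoter peak, but a peak of 11.3 on chromosome 4 from 131900319 to 131901023, at 96.3% of the gene length in the last coding exon and 2640 bp from any annotated TSS. This exon encodes the arginine- and serine-rich domain that gives SR proteins their name, and 15.6% of the 9-base words of the peak were repeated. The peak had a CpG ratio of 0.70 and 47 CpG sites, compared with 41 in the inner Hnrnpm peak.

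Prpf40b had its 10.5 peak on chromosome 15 from 99314703 to 99315326 at 90.9% of the gene length, again at a start that is marked as not found, with a CpG ratio of 0.34. A second peak, of 7.28, lay in an intron at 45.8% of the gene, and its CpG-rich 5′ end (ratio 0.77) had none. Snrpa had a peak of 6.21 in a coding exon at 73.8% of the gene, with a CpG ratio of 0.20, beside the one of 5.13 at its start. Hnrnpa2b1 had a peak of 5.74 in a UTR exon at 75.9%, with a GC content of 33.9% and no CpG site, beside the one of 5.58 at 401 bp from its 5′ end. Both Hnrnpf peaks, of 11.0 and 8.68 at 27.7% and 66.3% of the gene, lay in introns, 479 and 119 bp downstream of starts of coding transcripts and upstream of the coding exon, with CpG ratios of 0.86 and 0.87.

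**Figure D5:**
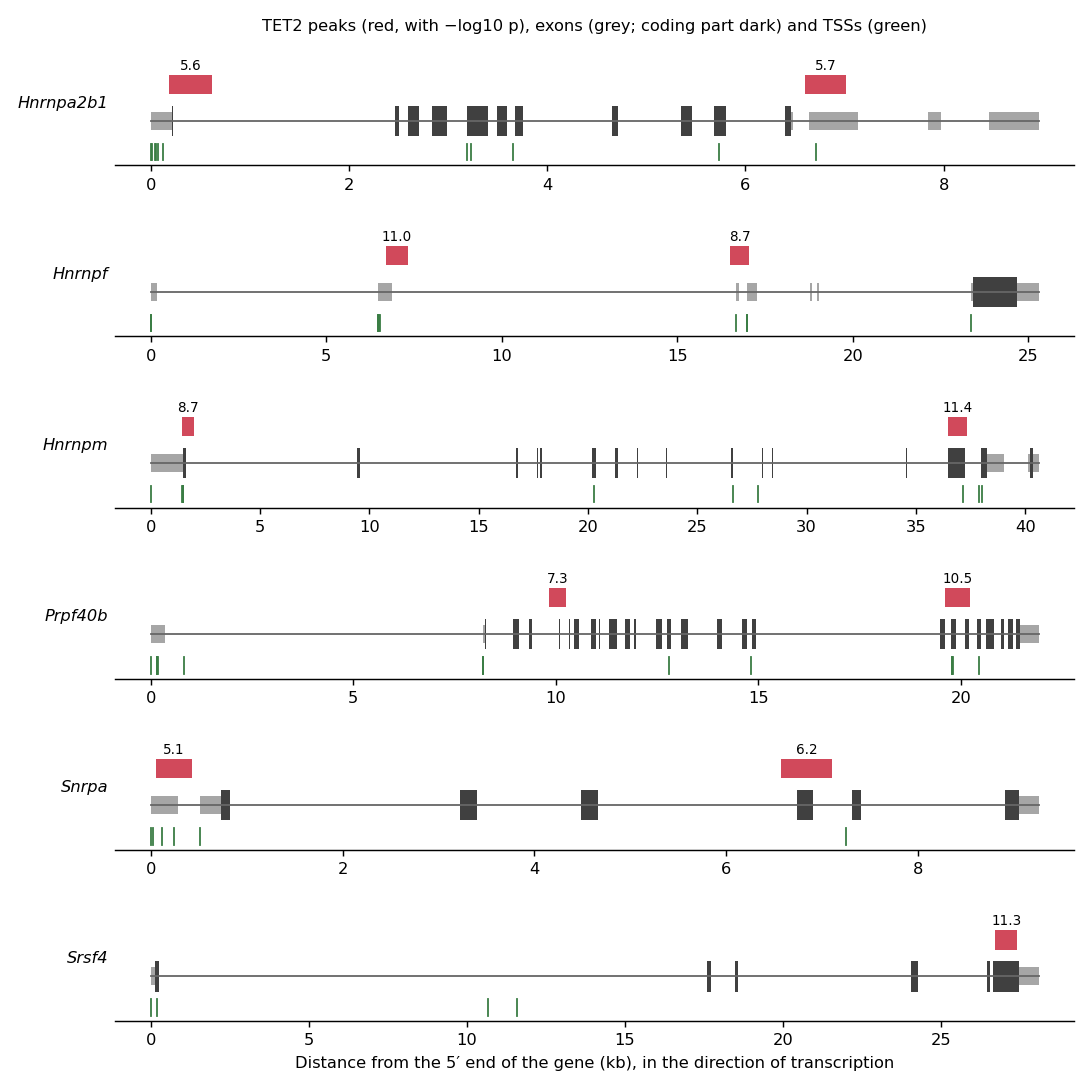
Positions of TET2 peaks (red boxes with their −log10 p), exons of coding transcripts (grey, coding part dark) and annotated TSSs (green ticks) along the 6 splicing factor genes with a peak in the 3′ part of the gene at a promoter or in a coding exon, with distance from the 5′ end of the gene in kb on the x axis. The 11.3 peak of Srsf4 and the 11.4 peak of Hnrnpm lie on large coding exons near the 3′ end, and the Srsf4 peak has no TSS beside it.

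Peaks in the gene body over 1 kb from any TSS occurred in 4 of the 67 genes (5.97%, 1.65% to 14.6%), against 14.8% of all protein-coding genes. The members are short, with a median length of 13.8 kb against 17.4 kb. Per whole gene length, 4 peaks in 1.17 Mb gave 3.43 peaks per Mb (exact 95% Poisson interval 0.93 to 8.78), against 4.01 (3.89 to 4.13) in other coding genes. The lengths include the parts within 1 kb of a TSS, where no peak could count. Members had a median of 6 TSSs against 3 for all protein-coding genes, and the rates were not adjusted for this. Counting only peaks over 3 kb from any TSS left 2 peaks and 1.72 per Mb (others 2.97), over the same whole gene lengths. Parts within 3 kb of a TSS were not taken out of them, so these rates do not compare the sequence that could hold a counted peak. Counting only peaks with −log10 p of at least 5 also left 2 and 1.72 per Mb (others 3.34). Besides Srsf4 and Prpf40b these were a peak of 4.12 in an intron of Hnrnpul2 and one of 4.84 in an intron of Prpf3, both CpG-poor (ratios 0.23 and 0.24), as was the inner intron peak of Prpf40b (0.24). The peak in Prpf3 was 64.5% repeat-masked and matched 17988 other places of the genome over at least 100 bp at 90% identity or more. Of the 35 peaks of the group, 31 had no such match. The other exceptions were the inner peaks of Snrpa (6 matches) and Hnrnpa2b1 (3), and the peak at Snrpe (1). Altogether 27 members had a promoter or body peak and 40 had neither.

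Other splicing genes that the symbol rule leaves out, such as the Lsm ring, snRNP proteins named Snrnp and spliceosomal helicases, were taken from a list of 92 symbols, of which 91 matched. Of these 31 (34.1%, 24.5% to 44.7%) had a promoter peak against 37.8% at the same CpG ratio. The highest were Lsm3, of the ring on U6 RNA, at 10.8, Rbm17 at 10.5 and Ptbp1, a repressor of exon inclusion, at 9.52. Of 50 proteasome subunit genes, 17 (34%, 21.2% to 48.8%) had one against 32.4%, and of 102 genes of translation factors and tRNA synthetases, 36 (35.3%, 26.1% to 45.4%) against 37.0%. All 3 shares lay inside the interval of the splicing factor genes.

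The list measures binding and no expression, so the labelled cell type could be checked only by peaks at its marker genes. Of 10 adipocyte marker genes, 1 (10%, 0.25% to 44.5%) had a promoter peak, Lep at 11.2, against 16.7% at the same CpG ratio and 24.6% of all coding genes. Adipoq, Fabp4, Plin1, Pparg and Cebpa had none, and the count does not tell the cell type. The list has 14103 peaks with −log10 p from 3.07 to 335.2 and gives no read totals, so no depth can be set beside each peak from it.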

How the data were processed

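ChIP-seq of TET2 in adipocytes differentiated from stem cells of mouse inguinal fat gave 1 TET2 and 1 input library. The authors trimmed reads with NGS QC Toolkit, aligned them with bowtie1 and called peaks with MACS2 against the input. The submitters' processing notes give MACS2 2.1.0 and mm10, while the methods text names GRCm39, and positions were taken as GRCm38. The deposited list holds intervals, read as 1-based, and the −log10 p of each peak. The list gives no read totals and there is 1 library of each kind, so no test was run. The bowtie1 version is not given in the sources used here.

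Peaks were placed by midpoint against GENCODE M21. The share expected at the same CpG ratio is the mean, over members, of the share of non-member coding genes with a promoter peak in the member's group of CpG ratio (20 groups of equal size). Shares have exact (Clopper-Pearson) 95% binomial intervals, rates exact Poisson intervals and medians intervals from binomial ranks. Matches in the genome were found with blastn 2.17.0 on the chromosomes. Python 3.11.15, numpy 2.4.6, scipy 1.17.1, pysam 0.24.0, samtools 1.23.1 and matplotlib 3.10.9 were used, and the placement and weighting were tested on simulated data.

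The members and lists were chosen with earlier results of these data known. Values were given for the 12 genes with the largest −log10 p at a promoter peak, all with 2 promoter peaks or a body peak, and the 3 highest and 3 lowest in CpG ratio without a peak. Others were named beside them. The sequences of Srsf6 and U2af2, the share of 9-base words repeated within a peak, the matches in the genome and the limit of 0.6 on the CpG ratio of a peak were chosen after the values were seen. Alternatives changed the TSS window, the TSSs, the peaks used, the CpG measure and the motif window. Signal in the input library was not used here, and 1 member is counted but not reported here by name.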

Additional observations from a re-analysis of the deposited data

How the results depend on the processing

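No paired analysis was possible because the series holds a single TET2 sample. The share of splicing factor genes with a promoter peak stayed inside its interval under all 9 alternatives, from 29.9% (20 genes, peaks at or above the list median) to 38.8%. The share expected from coding promoters of similar CpG ratio, 37.8% as set, was 33.4% with a TSS window of 500 bp, 41.7% with 3 kb, 34.2% with 1 TSS a gene and 36.3% with TSSs of protein-coding transcripts. It was 34% with −log10 p of at least 5 and 25% with at least the list median. It was 34.2% with the CpG ratio from 250 bp before to 50 bp after the TSS, 41.5% with the CpG ratio of the most CpG-rich TSS and 39.1% with the CpG ratio at the 5′ end and the number of TSSs both matched. Among alternatives chosen after seeing the data it was 41.7% with the most CpG-rich TSS and the number of TSSs, and 29.6% without peaks within 1 kb of a TSS of another coding gene, where the members had 32.8%. In all 10 settings that gave both shares, the expected share lay inside the interval of the members. It was above their share with the 3 kb window (38.8%) and with 1 TSS a gene (31.3%), and also wherever the most CpG-rich TSS or the number of TSSs was matched.

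The median offset was 391 bp from the 5′ end of the gene. Within 100 bp of the midpoint the SP1 motif was found in 48.4% of peaks (47.0% at other coding promoters), the ETS motif in 12.9% (6.19%), the C/EBP motif in 0% (2.57%) and the NRF1 motif in 0% (1.36%), in windows shorter than the peaks. Of 36 alternatives, 21 left the value inside its interval. With 1 library, the repeatability of any single peak could not be measured.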
